A study of Mus musculus with 24 samples.

Results

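Ifit1, Ifit2 and Ifit3 encode interferon-induced proteins with tetratricopeptide repeats, and their 3 probe sets, 1 for each gene, were described across 24 arrays of mouse choroid plexus. They were taken as all probe sets whose single gene symbol was Ifit1, Ifit2 or Ifit3, which gave 3 of 12393 genes on the array. The genes were chosen by their measured signals, which earlier results of these data had shown high in ApoE4, so their genotype and diet values below are a description, without a p-value. The array held 0 probe sets named for the neighbouring family members Ifit3b, Ifit1bl1 and Ifit1bl2.

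Type I interferons bind a receptor made of Ifnar1 and Ifnar2, and the signal passes to a complex with Irf9 as a DNA-binding part, which binds the interferon-stimulated response element (ISRE) in the promoters of target genes. Ifit genes are among the genes most strongly induced in this way. Ifit1 binds RNA whose 5' cap lacks the methylation that marks the cell's own messenger RNA, and it blocks translation of that RNA. Ifit2 and Ifit3 form complexes with it and with each other, and Ifit family members also bind the translation initiation factor eIF3. The choroid plexus is the tissue in the ventricles whose epithelium makes cerebrospinal fluid, and it is known to respond to interferon in ageing.

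The tissue was choroid plexus of C57BL mice aged 78 weeks, collected by laser capture, in which a chosen area of a frozen section is cut out under the microscope. All mice carried a humanized ApoE gene, and the groups were ApoE4-Knockin and ApoE3-Knockin mice on a high-fat diet (HFD), and ApoE4-Knockin and ApoE3-Knockin mice on normal chow (ND). Each of the 4 groups had 6 arrays, 3 from males and 3 from females. No label says that each array came from a separate animal, so each p-value is about the scatter among these arrays, which may be technical, and the number of arrays limits the precision. Mice without a humanized gene were not analysed here.

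The deposited signals are intensities scaled by array, with trimmed means of 499.929 to 499.934, and each has a call of Present or Absent. Between 52.9% and 60.5% of probe sets were Present on an array. That share averaged 58.2% on ApoE4 arrays and 54.8% on ApoE3 arrays on ND, and 59.0% on ApoE4 arrays and 55.4% on ApoE3 arrays on HFD. The spiked hybridization controls, averaged in log2, read 11.08 ± 0.16 on ApoE4 arrays against 11.43 ± 0.12 on ApoE3 arrays on ND, and 11.02 ± 0.32 on ApoE4 arrays against 11.40 ± 0.09 on ApoE3 arrays on HFD (SD, n = 6 each). Ttr, which encodes transthyretin, a secreted protein of this epithelium, read 13080 to 25450 on every array, and all 15 epithelial markers on the array were Present on 6 or more arrays.

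All 3 genes lie in 1 cluster on chromosome 19 (GRCm38.p6, plus strand). The RefSeq annotation places Ifit2 at chr19:34550550-34576534, Ifit3 at chr19:34583119-34588982 and Ifit1 at chr19:34640889-34650009. Ifit1bl1 (chr19:34592888-34662981), Ifit3b (chr19:34607530-34613403) and Ifit1bl2 (chr19:34617046-34640827) are annotated between or across them. Ifit3b resembles Ifit3 closely: in the promoter windows described next, 259 of 260 aligned bases were identical (99.6%, gaps left out). Whether the Ifit3 probe set also reads Ifit3b, or the Ifit1 probe set its neighbours, was not tested, because the probe sequences were not used here.

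The 250 bases upstream of the RefSeq starts of Ifit1 and Ifit3 are shown because both hold the interferon motif. Capitals mark matches to GAAANNGAAA on either strand, here on the minus strand, in sequences of RefSeq for GRCm38.p6 written 5' to 3' on the plus strand. The Ifit1 stretch is chr19:34640639-34640888 and partly overlaps the annotated Ifit1bl2, and the Ifit3 stretch is chr19:34583279-34583528, within the annotated span of Ifit3.
Ifit1: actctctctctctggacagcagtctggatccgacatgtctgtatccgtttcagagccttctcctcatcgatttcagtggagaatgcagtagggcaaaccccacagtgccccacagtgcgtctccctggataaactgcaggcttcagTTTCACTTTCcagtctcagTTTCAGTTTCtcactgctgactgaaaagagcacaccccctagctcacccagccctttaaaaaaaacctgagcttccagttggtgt
Ifit3: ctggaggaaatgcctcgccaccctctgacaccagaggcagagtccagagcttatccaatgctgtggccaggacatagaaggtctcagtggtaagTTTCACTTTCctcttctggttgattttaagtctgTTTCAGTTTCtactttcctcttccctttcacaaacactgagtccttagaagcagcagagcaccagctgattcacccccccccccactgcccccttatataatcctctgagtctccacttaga

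Each of these promoters held 2 matches. In Ifit1 they began 104 and 85 bases before the start, and in Ifit3 they began 156 and 122 bases before it. RefSeq gave 2 starts for Ifit2, and neither window of 250 bases before to 50 after the start held GAAANNGAAA, which says only that these letters are not in these windows. One of them held TTCNNNGAA, the letters of the gamma-activated site, 241 bases before the start. GAAANNGAAA was found in 3.44% of 32851 promoter windows and TTCNNNGAA in 8.30%. A match is a description of letters and not of a bound site.

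**Figure D1:**
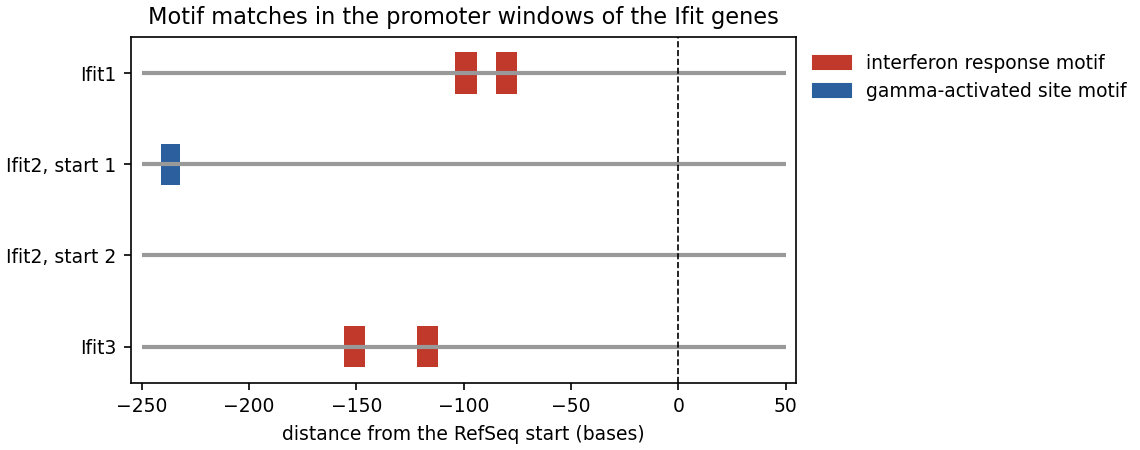
Motif matches in the promoter windows of Ifit1, Ifit2 (both RefSeq starts) and Ifit3, from 250 bases before to 50 after the start, which is the dashed line at 0. Red blocks are matches to the ISRE letters and the blue block is a match to the letters of the gamma-activated site; Ifit1 and Ifit3 have 2 red blocks each and neither Ifit2 window has one.

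Ifit1, the cap-sensing member, was Present on 24 of 24 arrays. On ND its signal was 1543.4, 1749.6, 3968.3, 3512.4, 2862.0 and 1889.2 on the ApoE4 arrays, against 411.6, 681.1, 628.9, 384.6, 827.5 and 579.4 on the ApoE3 arrays. On HFD it was 3316.0, 2834.8, 4261.1, 2988.0, 4456.0 and 5236.0 on the ApoE4 arrays, against 383.7, 714.8, 682.5, 720.9, 569.9 and 498.8 on the ApoE3 arrays. The genotypes did not overlap on either diet, and each of the 12 ApoE4 arrays read higher than all 12 ApoE3 arrays. Groups without overlap, higher in ApoE4, were seen for 1.38% of the 8261 tested genes on ND, 3.68% on HFD and 0.375% with both diets together, and nothing is read from this for genes chosen for the difference.

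On ND the signal of Ifit1 averaged 2587 ± 1012 in ApoE4 and 586 ± 167 in ApoE3 (SD, n = 6 each), a difference of 2.07 ± 0.24 (SE) in log2(signal + 16), or 4.20-fold. On HFD it averaged 3849 ± 950.4 in ApoE4 and 595 ± 136 in ApoE3, a difference of 2.66 ± 0.24 or 6.31-fold. The lowest ApoE4 array was 1.86 times the highest ApoE3 array on ND and 3.93 times on HFD. These were the highest differences of all 8261 genes in both comparisons, which is how the gene came to be chosen.

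Ifit3, the partner that stabilises Ifit1 in human cells, was also Present on 24 of 24 arrays. On ND its signal was 1271.4, 1264.9, 3881.6, 3784.9, 2105.9 and 1099.8 on the ApoE4 arrays, against 533.4, 1194.6, 652.1, 570.6, 1017.2 and 633.2 on the ApoE3 arrays. On HFD it was 3161.1, 2748.3, 4211.9, 2743.6, 5020.4 and 5056.4 on the ApoE4 arrays, against 455.6, 743.3, 813.8, 884.3, 767.6 and 642.4 on the ApoE3 arrays. The genotypes overlapped on ND, where 5 of 6 ApoE4 arrays exceeded the highest ApoE3 array, and did not overlap on HFD.

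The signal of Ifit3 averaged 2235 ± 1288 in ApoE4 and 767 ± 272 in ApoE3 on ND (SD, n = 6 each), a log2 difference of 1.395 ± 0.31 (SE) or 2.63-fold. On HFD it averaged 3824 ± 1083 in ApoE4 and 718 ± 151 in ApoE3, a difference of 2.37 ± 0.31 or 5.16-fold. The difference ranked 8th of 8261 on ND and 2nd on HFD. The ApoE4 arrays on ND were the most spread, with a coefficient of variation of 57.6% for Ifit3 and 39.1% for Ifit1. There the arrays of replicates 3 and 4 were the highest for both genes, and those of replicates 1, 2 and 6 the lowest for both.

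Ifit2, which binds AU-rich RNA, was dim and was Present on 12 of 24 arrays, 11 of them ApoE4. It therefore passed the filter, Present on at least 6 arrays, only through ApoE4. On ND its signal was 105.0, 124.0, 162.3, 144.7, 177.9 and 164.0 on the ApoE4 arrays, against 87.8, 24.0, 116.4, 91.0, 90.1 and 62.3 on the ApoE3 arrays, all 6 of which were Absent. On HFD it was 146.6, 147.7, 150.8, 133.5, 183.1 and 225.5 on the ApoE4 arrays, against 93.5, 111.9, 80.3, 66.4, 166.7 and 87.5 on the ApoE3 arrays, of which 1 was Present. The genotypes overlapped on both diets: 5 of 6 ApoE4 arrays on ND and 2 of 6 on HFD exceeded the highest ApoE3 array.

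The signal of Ifit2 averaged 146 ± 27.5 in ApoE4 and 78.6 ± 31.8 in ApoE3 on ND (SD, n = 6 each), or 1.81-fold in log2(signal + 16). All 6 ApoE3 arrays were Absent there, so the ApoE3 level is one of background and this fold is uncertain and not a minimum. The log2 difference on ND was 0.85. It was 0.63 without the lowest ApoE3 array, replicate 2, and 0.58 with a pseudocount of 64. On HFD it averaged 165 ± 34.1 in ApoE4 and 101 ± 35.5 in ApoE3, a log2 difference of 0.65 ± 0.21 (SE) in which the ApoE3 level was above background on 1 of 6 arrays.

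**Figure D2:**
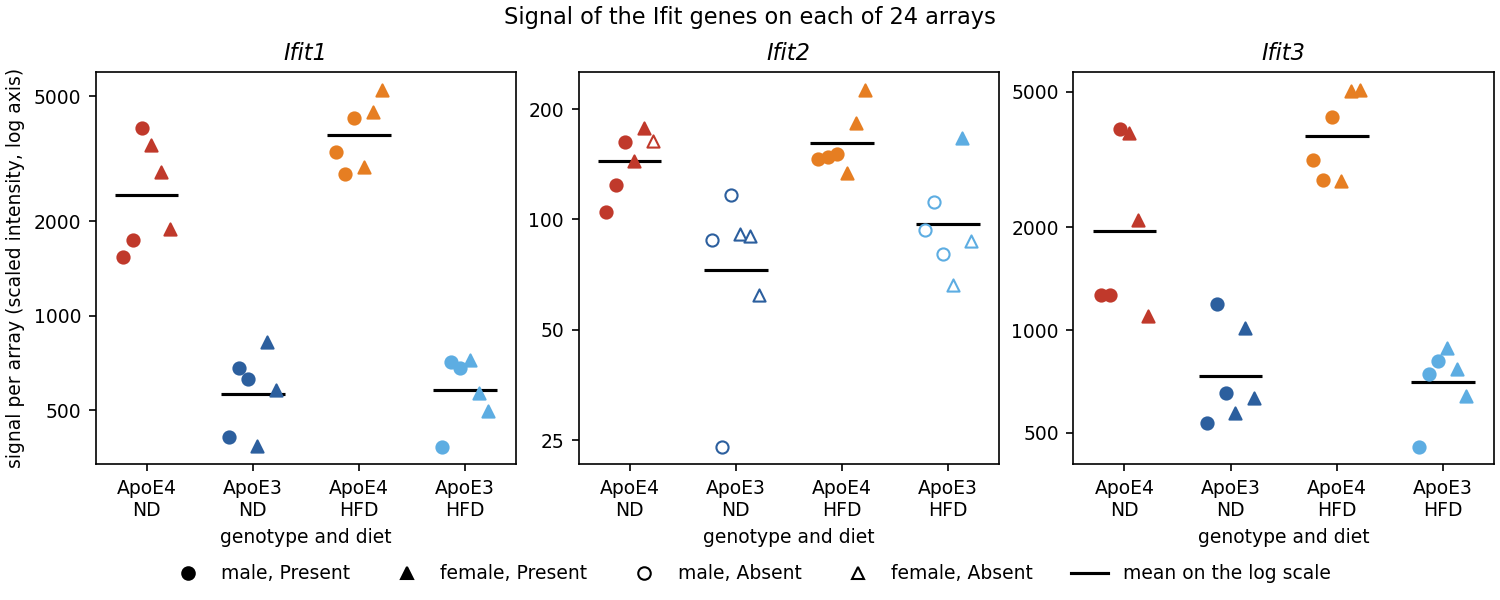
Signal (scaled intensity, log axis) of Ifit1, Ifit2 and Ifit3 on each of 24 arrays, by genotype and diet, with 6 arrays per group. Circles are males and triangles females, filled symbols are Present and open ones Absent, and lines are means on the log scale; all 12 ApoE4 arrays of Ifit1 lie above all 12 ApoE3 arrays, while Ifit2 overlaps on both diets.

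The high-fat diet was set against chow within each genotype. In ApoE4, Ifit3 averaged 3824 on HFD and 2235 on ND (0.92 ± 0.31, 1.89-fold), and 3 of 6 HFD arrays lay above every ND array. Ifit1 averaged 3849 on HFD and 2587 on ND (0.63 ± 0.24, 1.54-fold), again with 3 of 6 arrays above. Ifit2 differed by 0.15 ± 0.21. The groups overlapped for all 3 genes, and 0.0726% of tested genes did not overlap and were higher on HFD.

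In ApoE3 the 2 bright genes differed little between diets. Ifit1 averaged 595 on HFD and 586 on ND (0.04 ± 0.24), and Ifit3 averaged 718 on HFD and 767 on ND (-0.06 ± 0.31). Ifit2 averaged 101 on HFD, where 5 of 6 arrays were Absent, and 78.6 on ND, where 6 of 6 were, so no fold is given. The genotype difference was larger on HFD than on ND by 0.59 ± 0.34 for Ifit1 and 0.97 ± 0.43 for Ifit3. For Ifit2 the same value was -0.20 ± 0.30, the other way, and it rests on ApoE3 signals that were mostly Absent. These 4 comparisons share groups of arrays, so their values stand side by side and are not independent.

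Sex was not used to choose the genes and was tested. Averaged over groups, females minus males was 0.15 ± 0.17 for Ifit1 (limma, Benjamini-Hochberg adjusted p = 0.733), with a 95% interval of -0.21 to 0.51. It was 0.21 ± 0.15 for Ifit2 (limma adjusted p = 0.542, interval -0.10 to 0.51) and 0.16 ± 0.22 for Ifit3 (limma adjusted p = 0.796, interval -0.30 to 0.61). None of the 3 passed, where 1.28% of all tested genes did. Ifit2 was Present on 1 of 12 ApoE3 arrays, so its averaged sex difference rests in part on background signals. In ApoE4 on HFD, Ifit1 averaged 4227 ± 1141 in females and 3471 ± 726 in males (SD, n = 3 each), with overlapping values.

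The sex difference in ApoE4 exceeded that in ApoE3 by 0.24 ± 0.35 for Ifit1, 0.11 ± 0.30 for Ifit2 and 0.16 ± 0.44 for Ifit3, each with a limma adjusted p of 0.9997. For Ifit2 the ApoE3 side is a difference of background signals, so this test cannot decide the question for that gene. The intervals were wide, from -0.49 to 0.96 for Ifit1 and from -0.77 to 1.09 for Ifit3. By limma, 0% of 8261 genes passed this test, and 280 had an unadjusted p under 0.05.

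Whether the genes varied together was tested across the 6 arrays within each group, which takes out the genotype and diet differences. Ifit1 and Ifit3 had a positive correlation in 4 of 4 groups. In ApoE4 on HFD, Pearson's r was 0.976 (exact permutation p = 0.00556, adjusted p = 0.05 over 12 pairs) and Spearman's rho 0.943 (exact permutation p = 0.0167, adjusted p = 0.10). Without the 2 arrays farthest from the median of Ifit1, r was 0.985. In ApoE4 on ND, r was 0.957 (exact permutation p = 0.0278, adjusted p = 0.0556), rho was 0.771 (exact permutation p = 0.103) and r without the 2 farthest arrays was 0.865.

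In ApoE3 on ND, r for Ifit1 and Ifit3 was 0.810 (exact permutation p = 0.025, adjusted p = 0.0556), rho was 0.886 (exact permutation p = 0.0333) and r without the 2 farthest arrays was 0.707. In ApoE3 on HFD, r was 0.935 (exact permutation p = 0.025, adjusted p = 0.0556) and rho was 0.829 (exact permutation p = 0.0583), but r without the 2 farthest arrays was 0.382. That last value comes from few arrays with a narrowed range of Ifit1, so it cannot decide whether the relation rests on the arrays left out. All arrays of a pair share their total signal and quality.

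For Ifit2 in ApoE4 on HFD, r was 0.863 with Ifit1 (exact permutation p = 0.0139, adjusted p = 0.0556) and 0.841 with Ifit3 (exact permutation p = 0.00833, adjusted p = 0.05). Without the 2 farthest arrays these were 0.845 and 0.624. In ApoE4 on ND, r was 0.646 with Ifit1 and 0.399 with Ifit3, and 0.853 and -0.476 without the 2 farthest arrays. In ApoE3, where Ifit2 was Absent on 11 of 12 arrays, the values have no clear reading. By exact permutation tests of Pearson's r, 6 of 12 pairs had an unadjusted p under 0.05 and 0 had an adjusted p under 0.05, the lowest being 0.05. The adjustment ran over all 12 pairs, including those of Ifit2 in ApoE3, so the count of 0 depends in part on tests without a clear reading. After quantile normalization 3 had an adjusted p under 0.05, all in ApoE4 on HFD.

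**Figure D3:**
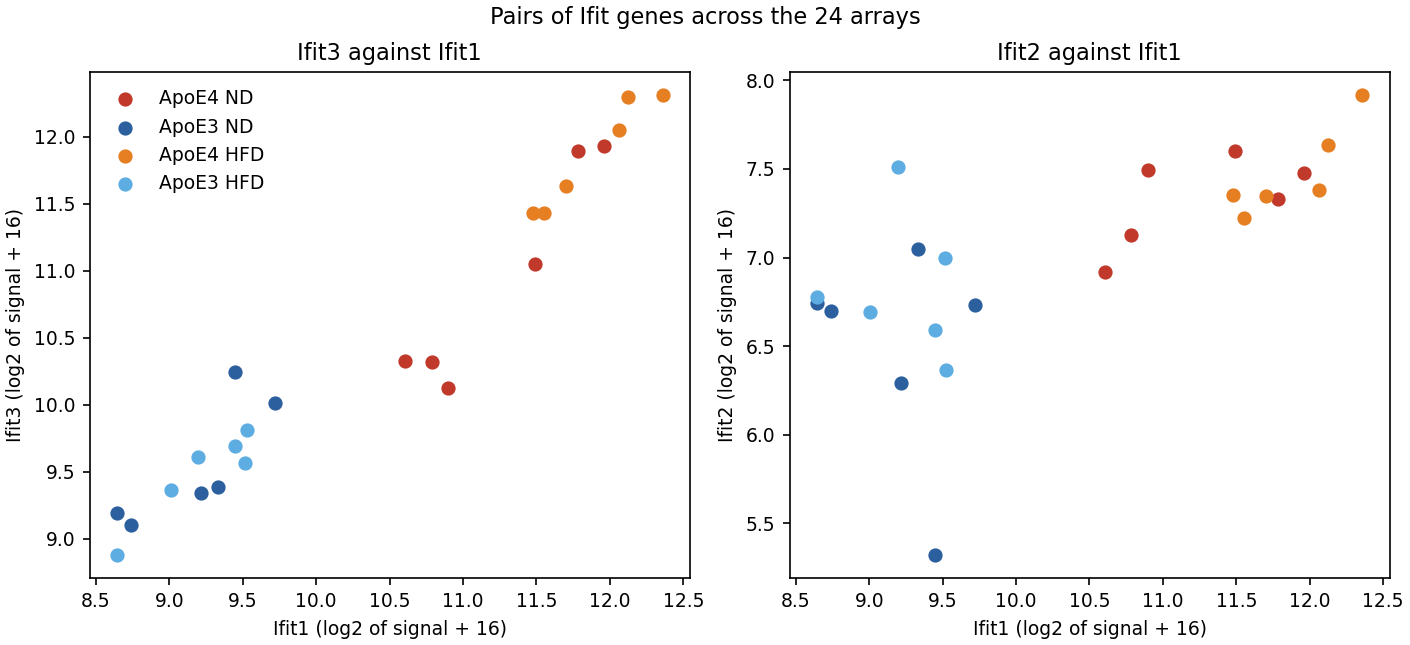
Ifit3 (left) and Ifit2 (right) against Ifit1 on 24 arrays, as log2(signal + 16), coloured by genotype and diet; each point is an array. Within a group, r of Ifit3 with Ifit1 is 0.810 to 0.976, though 0.382 in ApoE3 on HFD without the 2 farthest arrays. By exact permutation tests 0 of 12 pairs have an adjusted p under 0.05, the lowest being 0.05. The 12 include pairs of Ifit2 in ApoE3, where Ifit2 is Absent on 11 of 12 arrays.

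The genes whose pattern was most like the mean of the 3 Ifit genes over 24 arrays were Oasl2 (r = 0.973), Usp18 (0.970), Irgm1 (0.950), Ifih1 (0.945), Rsad2 (0.943), Trim34a (0.943), Parp12 (0.942) and Trim21 (0.937). The median r was 0.74 over 41 tested interferon targets and -0.12 over all other tested genes. With group means and sex taken out, the 8 highest were Irgm1 (0.808), Usp18 (0.796), Trim21 (0.779), Oasl2 (0.775), Irgm2 (0.768), Parp9 (0.767), Cops2 (0.753) and Igtp (0.737), and 4 genes were in both sets. The medians were then 0.41 for the targets and -0.03 for all genes. These values describe arrays that share depth and quality, and carry no test.

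The pathway around the Ifit genes was described from lists of ligands, receptors, signal carriers, sensors, targets and inhibitors. The ligands were close to background: of 10 interferon genes on the array, 9 were Absent on all 24 arrays, and Ifnb1 was Present on 5 with a highest signal of 87.6. Of 4 tested receptor genes, 0 were higher in ApoE4 on either diet, where 4.14% of all tested genes were higher on ND and 10.8% on HFD. On each diet 1 of the 4 was lower, where 5.6% of all tested genes were lower on ND and 17.1% on HFD. With 4 genes these counts cannot be told from the shares. Ifngr1, a chain of the interferon gamma receptor, fell in ApoE4 on ND (-0.70 ± 0.16, limma adjusted p = 0.00877), with a signal of 236.0 to 577.0 in ApoE4 and 474.4 to 689.1 in ApoE3. Ifnar1, a chain of the type I receptor, fell on HFD (-0.25 ± 0.08, limma adjusted p = 0.0266). Neither passed on the other diet: Ifngr1 differed by -0.11 ± 0.16 on HFD (limma adjusted p = 0.648) and Ifnar1 by -0.15 ± 0.08 on ND (limma adjusted p = 0.227).

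Of 9 tested signal carriers, 2 rose and 2 fell in ApoE4 on ND, and 3 rose and 2 fell on HFD. Of all tested genes, 4.14% rose and 5.6% fell on ND, and 10.8% rose and 17.1% fell on HFD. Irf7, the factor that amplifies interferon production, rose by 1.20 ± 0.19 on ND (limma adjusted p = 0.000533) and 1.37 ± 0.19 on HFD (limma adjusted p = 4.125e-05). Its signal was 419.3 to 684.5 in ApoE4 and 162.0 to 330.1 in ApoE3 on ND, without overlap. Irf9, the DNA-binding part of the complex at the ISRE, rose by 0.44 ± 0.12 on ND (limma adjusted p = 0.0221) and 0.52 ± 0.12 on HFD (limma adjusted p = 0.00326). Irf1, which is also induced by interferon gamma, fell by 0.50 on ND (limma adjusted p = 0.0264) and by 0.40 on HFD (limma adjusted p = 0.0399). Irf8 fell by 0.50 on ND (limma adjusted p = 0.0241), and its difference of -0.36 on HFD did not pass (limma adjusted p = 0.0594).

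Of 6 tested sensors, 3 rose and 0 fell on each diet, where 4.14% of all tested genes rose on ND and 10.8% on HFD. Ifih1, a cytoplasmic sensor of double-stranded RNA, rose by 0.65 ± 0.11 on ND (limma adjusted p = 0.000699) and 1.04 ± 0.11 on HFD (limma adjusted p = 7.834e-07). Tlr3, which senses double-stranded RNA in endosomes, rose by 0.39 ± 0.08 on ND (limma adjusted p = 0.00422) and 0.64 ± 0.08 on HFD (limma adjusted p = 5.57e-06). Eif2ak2, the RNA-activated kinase PKR, rose by 0.51 ± 0.12 on ND (limma adjusted p = 0.00748) and 0.43 ± 0.12 on HFD (limma adjusted p = 0.00834). Dhx58 went the other way without passing on either diet: -0.40 ± 0.14 on ND (limma adjusted p = 0.0627) and -0.30 ± 0.14 on HFD (limma adjusted p = 0.1055). With both diets averaged it was lower in ApoE4 (-0.35 ± 0.10, limma adjusted p = 0.00681).

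Other targets of type I interferon were counted with the Ifit genes left out. Of 41 tested, 22 rose and 0 fell in ApoE4 on ND, against 4.14% higher and 5.6% lower among all tested genes. On HFD 22 rose and 0 fell, against 10.8% higher and 17.1% lower among all. The others did not pass, and the differences of the 41 reached down to -0.30 on ND and -0.22 on HFD, with a median log2 difference of 0.37 on ND and 0.38 on HFD, against -0.02 and -0.05 over all tested genes. Earlier results of these data had shown this, and it is no independent support. Bst2, which tethers budding virus to the cell, rose by 1.27 ± 0.10 on ND (limma adjusted p = 6.796e-09), with a signal of 4219.0 to 5162.2 in ApoE4 and 1577.9 to 2164.8 in ApoE3. Rsad2, or viperin, rose by 1.07 ± 0.14 on ND (limma adjusted p = 3.7e-05) and 1.29 ± 0.14 on HFD (limma adjusted p = 1.461e-06).

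Between diets, 0 of the 41 targets passed in either genotype by limma, where 0.23% of all tested genes passed in ApoE3 and 0% in ApoE4. At an unadjusted p under 0.05, 6 of the 41 were higher on HFD in ApoE4 and 7 in ApoE3. At that threshold, 279 of all 8261 tested genes were higher on HFD in ApoE4 and 720 in ApoE3. The mean of the 41 targets was 9.07 ± 0.18 in ApoE4 and 8.51 ± 0.17 in ApoE3 on ND, and 9.23 ± 0.14 in ApoE4 and 8.65 ± 0.17 in ApoE3 on HFD (log2(signal + 16), SD over 6 arrays).

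**Figure D4:**
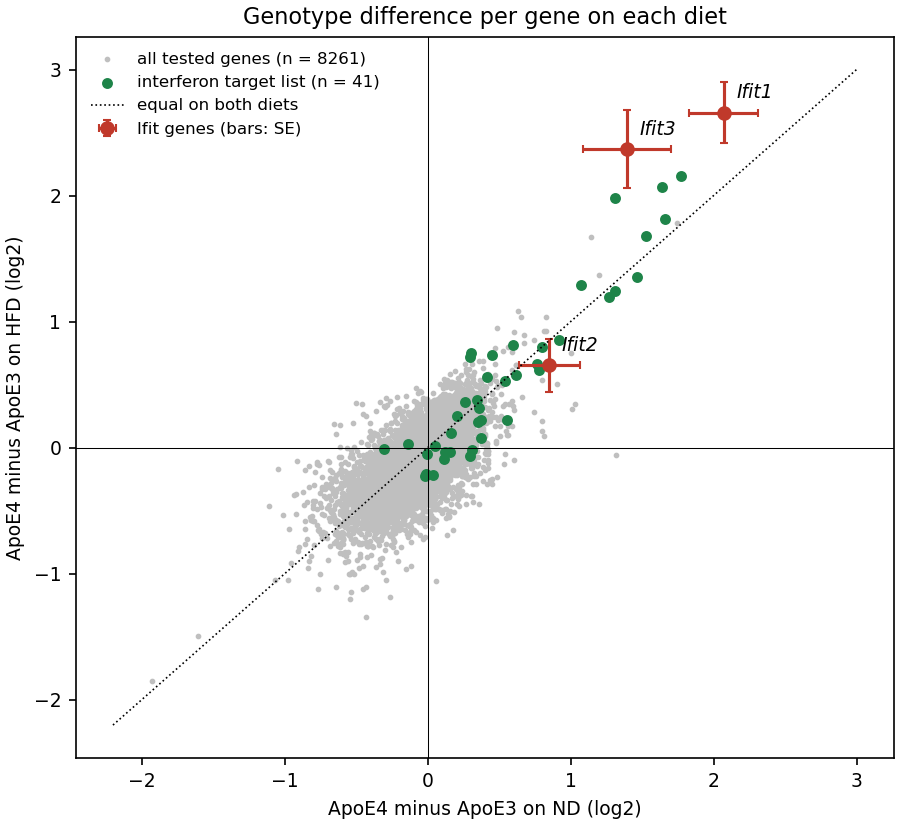
Difference ApoE4 minus ApoE3 in log2(signal + 16) on ND (x axis) and on HFD (y axis) for 8261 tested genes (grey), 41 interferon targets (green) and the 3 Ifit genes (red, bars are SE); the dotted line marks equal differences. Ifit1 (2.07 on ND, 2.66 on HFD) and Ifit3 (1.395 and 2.37) lie above the line; the position of Ifit2 rests on ApoE3 signals that were Absent on 11 of 12 arrays.

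**Figure D5:**
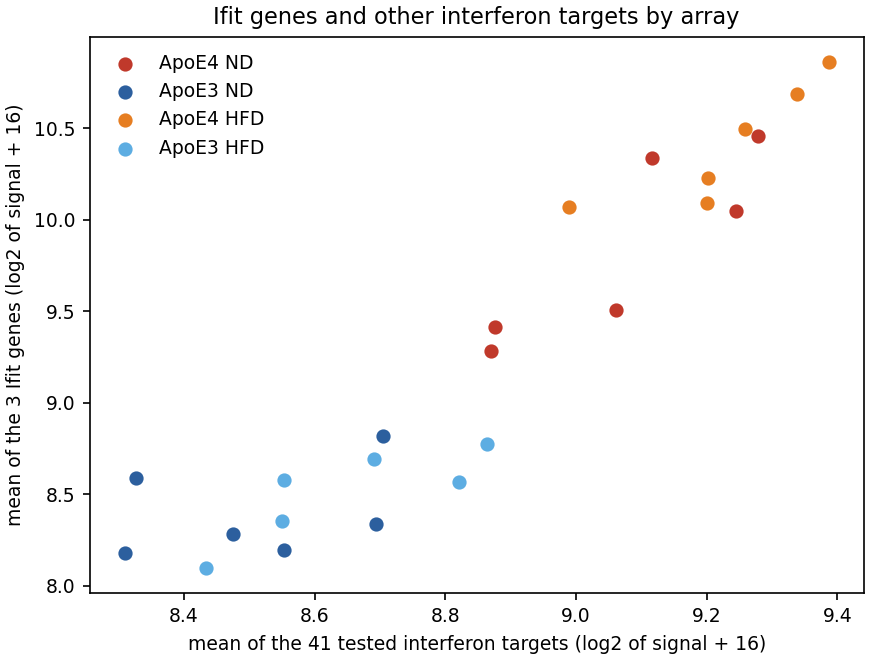
Mean of the 3 Ifit genes (y axis) against the mean of 41 other interferon targets (x axis) on each of 24 arrays, both as log2(signal + 16) and coloured by genotype and diet. The Ifit mean is 9.29 to 10.86 on ApoE4 arrays and 8.10 to 8.82 on ApoE3 arrays.

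Among 13 tested genes of a hand-written inhibitor list, 0 rose and 0 fell on ND, and 0 rose and 1 fell on HFD. The 1 that fell was Pias1, a SUMO ligase (-0.18 ± 0.07, limma adjusted p = 0.0457). With both diets averaged, Ptpn2 (0.21 ± 0.06, limma adjusted p = 0.00854) and Rnaseh2c (0.195 ± 0.07, limma adjusted p = 0.0297) rose, and Pias1 and Socs3 fell. The list does not hold every inhibitor. Usp18 was counted with the targets and rose by 1.77 ± 0.23 on ND (limma adjusted p = 8.244e-05) and 2.15 ± 0.23 on HFD (limma adjusted p = 3.094e-06). Among 15 tested genes of a list that holds eIF3 subunits and the cap enzyme Cmtr2, 0 rose and 1 fell on ND. On HFD 6 rose and 1 fell. Of all tested genes, 4.14% rose and 5.6% fell on ND, and 10.8% rose and 17.1% fell on HFD, so the falls in both lists are near or below the share of all genes. The eIF3 subunit Eif3m rose on HFD by 0.42 ± 0.08 (limma adjusted p = 0.000557). Cmtr2, which methylates the messenger RNA cap, fell by 0.49 on ND (limma adjusted p = 0.0239) and by 0.55 on HFD (limma adjusted p = 0.00521).

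The letters of the ISRE were set beside the genotype differences of other genes. They were in the promoter window of 14 of 32 tested targets with a window (43.8%). Over all tested genes with a window, the Ifit genes left out, 259 held the motif, of which 12.4% rose in ApoE4 on ND and 22.01% on HFD. Of 6491 without it, 4.02% rose on ND and 10.5% on HFD. Of the 238 with the motif that were on no list, 8.82% rose and 5.04% fell on ND, and 18.9% rose and 13.4% fell on HFD, with median log2 differences of 0.01 and -0.01. Of 4 tested protein-coding genes within 500 kb of the cluster, 0 rose and 1 fell in ApoE4 on ND, and 0 rose and 2 fell on HFD, where 4.14% of all tested genes rose and 5.6% fell on ND, and 10.8% rose and 17.1% fell on HFD; 4 genes are too few to tell from these shares. Acta2, smooth muscle actin, fell by 0.32 on ND (limma adjusted p = 0.0403) and by 0.43 on HFD (limma adjusted p = 0.00347). It is also 1 of 11 tested markers of smooth muscle cells and pericytes, of which 0 rose in ApoE4 on either diet, and 5 fell on ND and 6 on HFD. Stambpl1 fell by 0.48 on HFD (limma adjusted p = 0.00062).

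Markers of other cells were measured beside these values. The summed signal of 20 macrophage markers, 14 of them Present on 6 or more arrays, was 5776 to 8923 in ApoE4 and 5984 to 8909 in ApoE3 on ND, and 6847 to 8832 in ApoE4 and 6839 to 9898 in ApoE3 on HFD. Itgam, Tmem119 and Trem2 were Absent on all 24 arrays. Of the 14 tested macrophage markers, 0 rose and 3 fell in ApoE4 on ND, and 0 rose and 5 fell on HFD. Among all tested genes, 4.14% rose and 5.6% fell on ND, and 10.8% rose and 17.1% fell on HFD. With the macrophage marker mean as a covariate, ApoE4 minus ApoE3 was 1.96 on ND and 2.57 on HFD for Ifit1, and 1.30 on ND and 2.29 on HFD for Ifit3. The summed signal of 13 lymphocyte markers, 8 of them Absent on all arrays, was 451 to 654 in ApoE4 and 550 to 896 in ApoE3 on ND, and 458 to 610 in ApoE4 and 636 to 963 in ApoE3 on HFD. These lymphocyte sums did not overlap on HFD. The part of the lymphocyte markers in the Ifit differences was not tested. The summed signal of 10 myelin markers was 2429 to 4154 in ApoE4 and 3158 to 4435 in ApoE3 on ND, and 3043 to 4546 in ApoE4 and 4940 to 6318 in ApoE3 on HFD, without overlap on HFD. With the mean of the neuron, myelin and astrocyte markers as a covariate, ApoE4 minus ApoE3 was 2.08 on ND and 2.68 on HFD for Ifit1. The 4 arrays dimmest in the hybridization controls were all ApoE4 and mostly on HFD. With them left out, ApoE4 minus ApoE3 was 2.03 ± 0.26 (SE) on ND and 2.56 ± 0.31 on HFD for Ifit1. For Ifit3 it was 1.38 ± 0.35 on ND and 2.22 ± 0.41 on HFD, and for Ifit2 0.81 ± 0.23 on ND and 0.52 ± 0.27 on HFD. In bulk tissue, fewer cells of a type and less RNA per cell cannot be told apart.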

How the data were processed

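Choroid plexus of 4 groups of 6 arrays (ApoE4 or ApoE3, HFD or ND) was measured on 24 Affymetrix arrays. The deposited intensity values are signals the authors made with GCOS 1.4, per the submitters' processing notes, scaled by array. Each signal was deposited by the authors with a detection call and a detection p-value; the p-values, of which 42 exceed 1, were not used. Both deposited tables gave the same signal in all 544560 cells.

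Signals were taken as log2(signal + 16), probe sets Present on at least 6 of 24 arrays were kept, and the probe set of highest mean stood for its gene, giving 8261 genes. Group means and a sex term were fitted with limma 3.58.1 (R 4.3.3, eBayes with trend and robust options), and two-sided p-values were adjusted over all genes by Benjamini-Hochberg. Scores of likeness are Pearson correlations. Python 3.11.15 with scipy 1.17.1 gave exact permutation tests, and matplotlib 3.10.9 the figures. The fit was tested on simulated data. The members, lists and tests were chosen with earlier results of these data known. In each list the 4 members of smallest p were eligible to be named, and the 8 most alike genes. Same-numbered arrays of 2 groups did not vary together (0 of 6 correlations over 0.1 in each comparison), so no pairing was used.

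Alternatives were pseudocounts of 1 and 64, quantile normalization, other filters and probe set rules, no sex term, a replicate block, only the arrays compared, array weights, 4 covariates, and leaving out arrays. The hybridization controls were averaged over 9 probe sets. Averaging all 18 was tried after the data had been seen and is given as an added alternative; both choices put the same 4 arrays lowest.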

Additional observations from a re-analysis of the deposited data

How the results depend on the processing

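The genotype and diet differences of Ifit1, Ifit2 and Ifit3 moved by less than 1 SD between replicates under 17 alternatives and when each of 24 arrays was left out. That SD was 0.43 for Ifit1, 0.41 for Ifit2 and 0.54 for Ifit3, larger than several diet differences, so for those it shows no stability. With 1 array left out, HFD minus ND in ApoE3 was -0.09 to 0.14 for Ifit1, 0.13 to 0.49 for Ifit2 and -0.15 to 0.11 for Ifit3. In ApoE4 it was 0.51 to 0.79 for Ifit1, 0.08 to 0.23 for Ifit2 and 0.73 to 1.14 for Ifit3. Over the alternatives, the ApoE4 minus ApoE3 difference (log2) lay between 1.96 and 2.14 on ND and 2.56 and 2.69 on HFD for Ifit1, 1.30 and 1.45 on ND and 2.22 and 2.39 on HFD for Ifit3, and 0.58 and 1.02 on ND and 0.48 and 0.86 on HFD for Ifit2. With 1 array left out the ranges were 1.91 to 2.19 and 2.55 to 2.74 for Ifit1, 1.17 to 1.58 and 2.26 to 2.48 for Ifit3, and 0.63 to 0.996 and 0.54 to 0.78 for Ifit2. The count of interferon targets higher in ApoE4 was 17 to 24 of those tested on ND and 19 to 24 on HFD over the alternatives, and 18 to 23 and 21 to 24 with 1 array left out. The 4 arrays with the lowest hybridization controls were all ApoE4, and without them the counts were 22 and 19. The sex test passed for 0 of the 3 genes under the 14 alternatives run for it or with any array left out, with a limma adjusted p of 0.3985 or more. With the replicate number as a block, the differences were 2.07 for Ifit1, 0.85 for Ifit2 and 1.395 for Ifit3 on ND, and the count of targets called higher was 22 on each diet; whether these were the same genes was not compared, and the sex test and the pairs were not run with the block. Quantile normalization changed the pairs: 3 of 12 passed in place of 0, with r = 0.943 for Ifit1 and Ifit2 (exact permutation adjusted p = 0.0333), 0.980 for Ifit1 and Ifit3 (0.0444) and 0.897 for Ifit2 and Ifit3 (0.0333) in ApoE4 on HFD; the cause was not tested. Ifit2 was near background in ApoE3, Absent on 6 of 6 arrays on ND and 5 of 6 on HFD. This limits its differences on both diets and its sex tests.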
